A study of Homo sapiens with 12 samples.

Results

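The response of wild-type THP-1 cells to the drug CC-885 was measured here in 6 of the 12 libraries of the series. The 3 wild-type libraries treated with CC-885 at 50 nM for 12 h were set against the 3 wild-type libraries given DMSO for the same 12 h, and group membership came from the sample titles. Of 30017 gene symbols in the deposited table, 16010 passed the count filter and were tested. THP-1 is an established human monocytic line derived from acute myeloid leukaemia and grown in suspension. The labels name the cells as leukaemic blasts of blood origin. All titles say THP1, while the cell line label reads THP1 in the DMSO libraries and CC-885 replicate 1 but THP2 and THP3 in CC-885 replicates 2 and 3, so taking every library as THP-1 rests on the titles. Both wild-type groups had been electroporated with Cas9, without a guide RNA against IRAK4, and regrown from single cells. The number of clones behind them is not given, and nothing says whether the 3 replicates of a treatment were separate cultures. The p-values therefore rest on the spread among these libraries alone, which may be technical. The other 6 libraries are IRAK4 knockout cells. They entered the count filter, the scaling and the estimate of that spread, but not the contrast.

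CC-885 is a small molecule of the cereblon modulator class. It binds cereblon, the substrate receptor of a cullin-4 ubiquitin ligase, and turns the ligase on GSPT1, also called eRF3a, the GTPase that helps the release factor ETF1 free finished chains from ribosomes at stop codons. Cells meet disturbed translation with the integrated stress response, in which phosphorylated eIF2 lowers initiation while the transcription factor ATF4 is translated and switches on amino acid supply and stress genes. Colliding ribosomes also signal through stress kinases to immediate early genes, whose short-lived transcripts carry AU-rich elements. All values below are levels or differences of transcripts, and protein was not measured.

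Libraries were of like depth, from 46903984 to 54905015 counts under DMSO and from 52287799 to 52564201 under CC-885. CC-885 replicate 3 stood apart from the other replicates of its group. The chi-square per degree of freedom over genes was 5.33 between CC-885 replicates 1 and 2 and 81.5 and 66.6 between replicate 3 and each of them, against 6.49 to 16.3 between DMSO libraries. Replicate 3 was at least 2-fold above the mean of replicates 1 and 2 in 209 genes and at least 2-fold below it in 415. Library names begin with 51 for DMSO replicate 1 and CC-885 replicates 1 and 2, and with 52 for DMSO replicates 2 and 3 and CC-885 replicate 3. The labels do not say what the prefix means. On the first principal component, which held 86.5% of the variance of the 6 libraries, all CC-885 libraries lay on one side, and replicate 3 parted from the others on the second, with 5.97%. Counts over gene lists below are therefore also given without replicate 3, fitted on the same genes. In the bulk values of these libraries, fewer cells of a kind and less RNA per cell cannot be told apart. The 14 markers of monocytic leukaemia cells were each above 1 count per 1000000 (CPM) in a library and together held 5273 to 5493 CPM under DMSO and 2706 to 2941 CPM under CC-885. Among markers of other lineages, CD4 (202 to 114 CPM) and PECAM1 (281 to 108 CPM), which monocytic cells also carry, gave most of the signal. The remaining T and NK cell markers summed to at most 11.1 CPM and the remaining epithelial, stromal and endothelial markers to at most 2.20 CPM, with CD3E, CD3G, KRT5, KRT18, COL1A2 and CDH5 at 0. Markers of B cells reached 8.61 CPM and those of erythroid cells 11.1 CPM. Whether these shifts bear on other results was not tested.

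Most of the expressed transcriptome moved. At an adjusted p under 0.05 (edgeR's quasi-likelihood test with Benjamini-Hochberg adjustment), 5710 genes rose and 5865 fell, or 35.7% and 36.6% of the genes tested, and 72.3% in both directions together. At least 2-fold, 2660 rose (16.6%) and 2033 fell (12.7%). Without replicate 3 the shares were 36.1% and 37.5%, or 16.2% and 12.3% at 2-fold or more. Of the genes called with all 3 libraries, 5494 higher and 5560 lower were called the same way without replicate 3, 216 and 305 lost their call, and 0 turned direction. A further 280 rose and 450 fell only without it. The CC-885 and DMSO values did not overlap in 5789 genes that were higher (36.2%) and 6032 that were lower (37.7%). Because libraries of the 51 and 52 prefixes give 2 comparisons with no library in common, the direction could be read in each. It was the same for 13920 of all genes tested (86.9%). With shares of this size, a list in which about 1 gene in 3 rises is close to the background, and lists are described by their counts beside these figures. The median log2 fold change over all genes was -0.034. Log2 fold changes below are CC-885 over DMSO, ± SE from the model where an error follows, and a gene is said to rise or fall only where it passed this test.

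**Figure D1:**
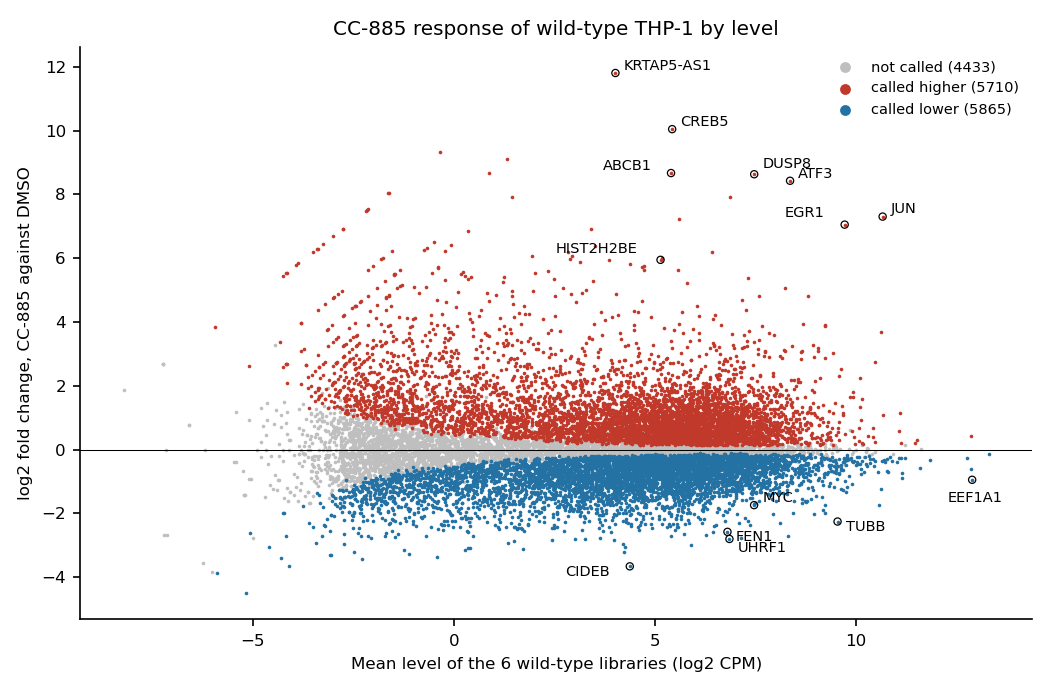
Mean level of the 6 wild-type libraries (horizontal axis, log2 CPM) against the log2 fold change of CC-885 over DMSO (vertical axis) for 16008 genes, leaving out 2 with no count in these libraries. Points are coloured by call. Among the labelled genes, DUSP8 stands at 8.63 and CIDEB at -3.66, and the fitted value of KRTAP5-AS1 rests on 1 count under DMSO.

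**Figure D2:**
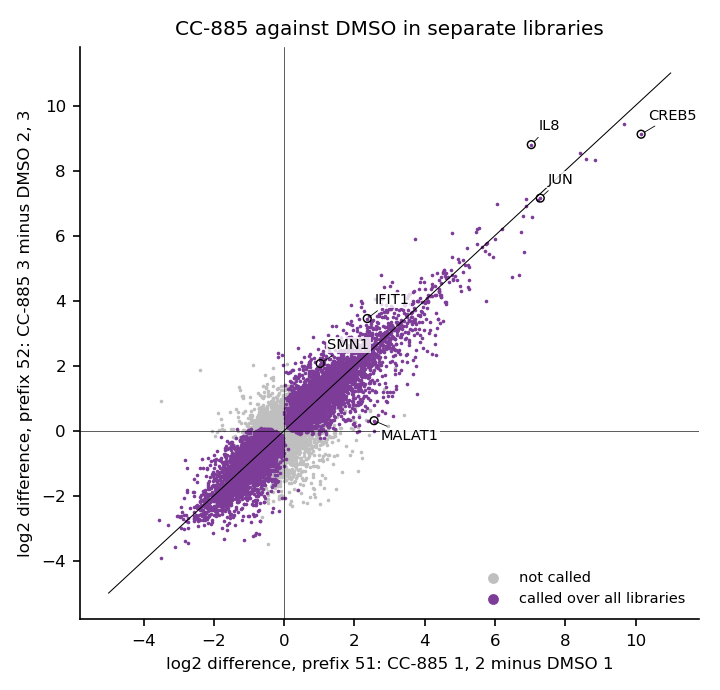
The log2 difference between CC-885 and DMSO in libraries with prefix 51 (horizontal axis, CC-885 replicates 1 and 2 minus DMSO replicate 1) against that in libraries with prefix 52 (vertical axis, CC-885 replicate 3 minus DMSO replicates 2 and 3). Each point is 1 gene, the diagonal marks equal differences, and ringed genes are labelled. IL8 and IFIT1 lie above the diagonal (7.03 and 8.80, and 2.36 and 3.45), and MALAT1 below it (2.56 and 0.30).

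KRTAP5-AS1 headed the ranking by fitted fold among called genes with no overlap and at least 5 CPM in the higher group. It is an antisense transcript that starts inside DUSP8 (chromosome 11, 1571353 to 1599184, plus strand, GENCODE release 29 on GRCh38, against chromosome 11, 1554044 to 1571920, minus strand). It read 0, 0.0201 and 0 CPM with DMSO and 32.7, 31.5 and 33.1 CPM with CC-885. In counts that is 1 against 4941, a ratio of shares of 4735 with a 95% interval of 849 to 187050 (exact binomial, covering counting error only). DUSP8, a phosphatase of stress kinases, read 0.770, 1.01 and 0.884 CPM with DMSO and 378, 369 and 316 CPM with CC-885 (8.63 ± 0.12, edgeR adjusted p = 2.3e-17). Both were low in every control library and high in every treated one, and since the strand setting of the counting is not given, their reads cannot be told apart where they overlap. CREB5, a transcription factor of the CREB family (chromosome 7, 28299321 to 28825894), read 0.0428, 0.0604 and 0.126 CPM with DMSO and 98.9, 88.5 and 71.2 CPM with CC-885, and ABCB1, the multidrug efflux pump (chromosome 7, 87503633 to 87713323), read 0.214, 0.322 and 0.0902 CPM with DMSO and 86.2, 85.8 and 81.2 CPM with CC-885. A lack of overlap between treatments was a condition of this ranking. INHBE, the inhibin beta E subunit, read 0.150, 0.222 and 0.144 CPM with DMSO and 19.7, 21.9 and 21.3 CPM with CC-885. MB21D2 rose by 6.38 ± 0.19, the orphan nuclear receptor NR4A3 by 6.19 ± 0.26 and the zinc finger factor EGR2 by 6.07 ± 0.17. PTGS2, the inducible prostaglandin synthase, read 1.09, 1.15 and 1.08 CPM with DMSO and 71.5, 74.4 and 68.7 CPM with CC-885, while its constitutive relative PTGS1 fell (-0.31). Uncharacterised loci and some other symbol classes, given with the processing, were left out of the rankings. Among the genes left, only TMEM88 had 0 counts in every DMSO library and at least 1 CPM on average under CC-885. TMEM88 read 2.31, 1.87 and 0.587 CPM with CC-885. Against a floor of 3 counts over the DMSO libraries it was at least 77.9-fold higher.

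Falls were smaller in fold than rises. CIDEB, a lipid droplet protein, read 37.3, 37.7 and 40.6 CPM with DMSO and 3.69, 2.90 and 2.53 CPM with CC-885. The chemokine receptor CCR2, which guides monocytes to CCL2, read 232, 249.8 and 255 CPM with DMSO and 32.6, 33.7 and 41.8 CPM with CC-885, and the iron exporter SLC40A1 read 21.7, 20.8 and 22.2 CPM with DMSO and 2.52, 3.52 and 3.52 CPM with CC-885. As for the rises, only genes whose groups did not overlap were ranked. NFE2, a factor of megakaryocytic and erythroid cells, stood at -2.79 ± 0.11, the nucleotide receptor P2RY2 at -2.70 ± 0.074, the ligand gene WNT7B at -2.84 ± 0.29 and the prenylcysteine oxidase PCYOX1 at -2.71 ± 0.073. Of the 15 largest falls, UHRF1 and DSCC1 belong to DNA replication and CBX2 to Polycomb, and both groups are described below.

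Ranked by the change in share of counts, which weights long and abundant transcripts, other genes led. JUN gained most, 3211 CPM, from 22.04, 19.5 and 19.7 CPM to 3468, 3435 and 2790.0 CPM. H1F0, the linker histone of cells that leave the cycle, followed with 240.4, 221 and 219 CPM with DMSO and 3102, 2928 and 2761 CPM with CC-885, then TXNIP, an inhibitor of thioredoxin and of glucose uptake, with 357, 377 and 375 CPM with DMSO and 2502, 2405 and 2608 CPM with CC-885. Here too, only called genes whose groups did not overlap were ranked. RNR2, a symbol with no match in the annotation used, gained 2099 CPM, with 0.41 ± 0.064 on the log2 scale. The bromodomain protein BRD2 (2.25 ± 0.065), the RNA-binding proteins HNRNPU (1.14 ± 0.068) and ZFR (1.58 ± 0.15) and the CCAAT-binding subunit NFYC (1.09 ± 0.062) were among the 10 largest gains. Among the 10 largest losses, EEF1A1, which brings aminoacyl-tRNA to the ribosome, read 10821, 9756 and 9498 CPM with DMSO and 4714, 4917 and 5962 CPM with CC-885, a change of -4827 CPM and -0.95 ± 0.085, edgeR adjusted p = 4.5e-08. Actin ACTB (-0.62 ± 0.056), the chaperone HSPA8 (-0.90 ± 0.09), prothymosin PTMA (-1.24 ± 0.07) and the granule proteoglycan SRGN (-1.75 ± 0.18) also lost. CAP1 and PPT1, which overlap on opposite strands, are uncertain, and the call of CAP1 (-0.15 ± 0.062) was lost in 10 of 19 alternative fits, with -0.092 without DMSO replicate 1.

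**Figure D3:**
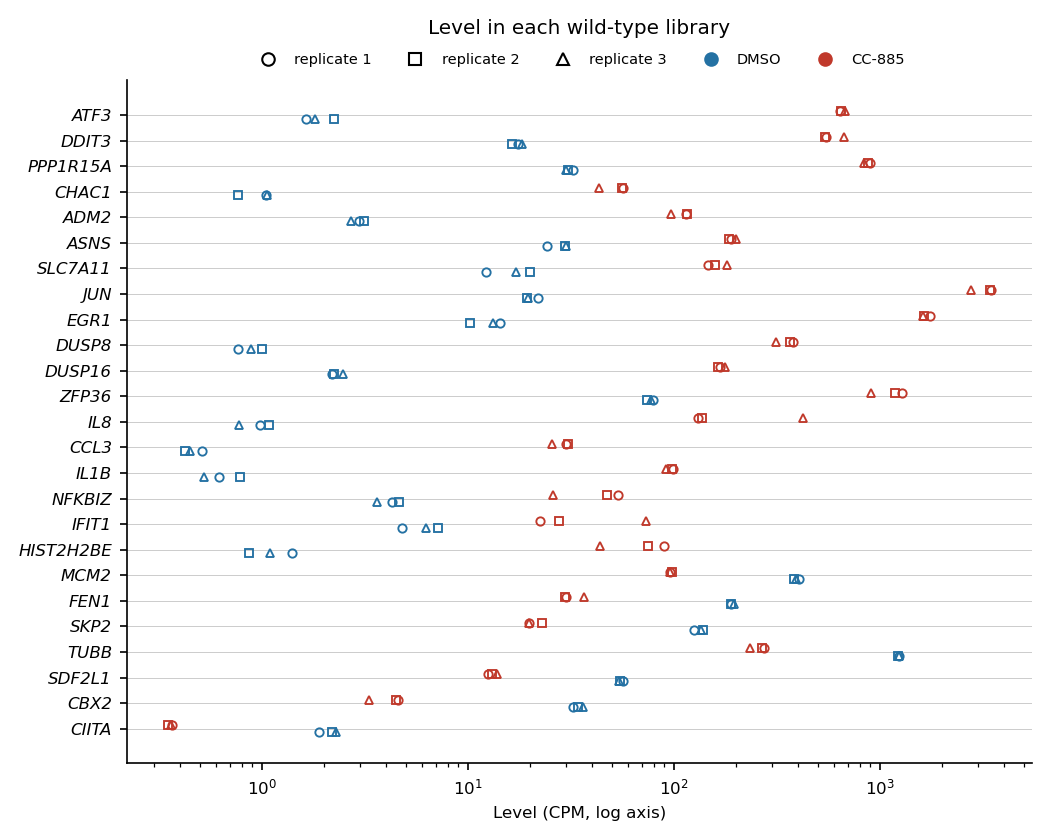
Level of 25 genes in each wild-type library (horizontal log axis, CPM), with blue for DMSO, red for CC-885 and a symbol for each replicate. In every gene drawn the colours are separate, and CC-885 replicate 3 sits apart from replicates 1 and 2 in IL8 (426 against 131 and 137 CPM), IFIT1 and HIST2H2BE.

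Promoters of 8 genes from the stress, immediate early, inflammatory and replication lists are shown, chosen because they hold a match to the motif searched in their list, so they do not stand for the share of a list that holds it. Each runs over the 250 bases before the RefSeq start (GRCh38.p14), 5′ to 3′ on the gene's strand, with matches in capitals. CHAC1 (chr15:40953221-40953470, plus strand) and ATF3 (chr1:212565157-212565406, plus strand) hold a match to the ATF4 composite site, searched as TGATGNAAN. DUSP8 (chr11:1572272-1572521, minus strand) and PPP1R15A (chr19:48872171-48872420, plus strand) hold the cyclic AMP response element (CRE) TGACGTCA. EGR1 (chr5:138465229-138465478, plus strand) holds 2 CArG boxes, the site of serum response factor. TNFAIP3 (chr6:137867009-137867258, plus strand) holds 2 NF-kB sites, and PCNA (chr20:5126623-5126872, minus strand) and MCM3 (chr6:52284743-52284992, minus strand) an E2F site, searched as TTTCCCGC or TTTGGCGC.
CHAC1: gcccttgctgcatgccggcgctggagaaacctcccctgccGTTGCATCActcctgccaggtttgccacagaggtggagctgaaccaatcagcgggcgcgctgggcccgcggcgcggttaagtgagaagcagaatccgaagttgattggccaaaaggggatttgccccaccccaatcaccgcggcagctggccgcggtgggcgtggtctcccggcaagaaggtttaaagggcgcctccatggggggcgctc
ATF3: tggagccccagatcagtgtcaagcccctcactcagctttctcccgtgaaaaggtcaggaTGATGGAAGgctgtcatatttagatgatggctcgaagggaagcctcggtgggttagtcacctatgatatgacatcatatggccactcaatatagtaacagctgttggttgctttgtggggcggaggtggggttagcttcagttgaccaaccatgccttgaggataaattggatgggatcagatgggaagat
DUSP8: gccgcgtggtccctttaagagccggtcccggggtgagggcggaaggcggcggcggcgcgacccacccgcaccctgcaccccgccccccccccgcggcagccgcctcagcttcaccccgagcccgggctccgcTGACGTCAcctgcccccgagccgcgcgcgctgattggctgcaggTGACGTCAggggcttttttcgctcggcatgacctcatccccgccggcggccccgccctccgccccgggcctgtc
PPP1R15A: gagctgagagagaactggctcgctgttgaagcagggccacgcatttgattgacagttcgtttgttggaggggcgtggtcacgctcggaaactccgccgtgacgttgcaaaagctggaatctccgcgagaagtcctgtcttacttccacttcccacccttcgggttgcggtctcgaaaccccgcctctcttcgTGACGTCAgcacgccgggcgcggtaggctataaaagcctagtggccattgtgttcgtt
EGR1: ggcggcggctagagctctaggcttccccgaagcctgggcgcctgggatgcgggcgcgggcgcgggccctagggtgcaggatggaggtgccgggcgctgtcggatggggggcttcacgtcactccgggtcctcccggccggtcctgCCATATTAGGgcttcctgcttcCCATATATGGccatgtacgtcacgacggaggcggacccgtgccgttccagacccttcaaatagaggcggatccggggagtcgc
TNFAIP3: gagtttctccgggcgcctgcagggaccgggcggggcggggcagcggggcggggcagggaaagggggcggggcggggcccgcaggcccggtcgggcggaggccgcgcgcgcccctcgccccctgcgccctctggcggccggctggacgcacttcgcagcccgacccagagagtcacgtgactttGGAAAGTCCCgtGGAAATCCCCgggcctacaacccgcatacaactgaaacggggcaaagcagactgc
PCNA: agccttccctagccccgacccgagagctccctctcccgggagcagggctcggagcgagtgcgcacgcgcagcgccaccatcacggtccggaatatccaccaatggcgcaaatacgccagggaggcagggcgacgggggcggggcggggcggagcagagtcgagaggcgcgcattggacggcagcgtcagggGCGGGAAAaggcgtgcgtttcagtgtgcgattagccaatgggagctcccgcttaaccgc
MCM3: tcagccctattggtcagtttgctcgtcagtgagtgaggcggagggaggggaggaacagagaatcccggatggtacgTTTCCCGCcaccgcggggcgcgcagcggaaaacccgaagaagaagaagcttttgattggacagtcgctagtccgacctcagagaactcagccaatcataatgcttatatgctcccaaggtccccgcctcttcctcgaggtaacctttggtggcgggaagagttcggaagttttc

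Motifs were searched on both strands in 15735 such promoters of 10770 tested genes (67.3%). The ATF4 composite site was found in 1.82% of all of them. It stood in 9 of 281 promoters (3.203%) of genes called higher at 8-fold or more and 3 of 220 (1.36%) of those called lower at 4-fold or more. For genes not called it was 79 of 3916 (2.02%). The shares of the higher and lower groups below are of the same 281 and 220 promoters, so they can rest on few matches. By list it stood in 4 of 18 promoters (22.2%) of amino acid synthesis enzymes and in 1 of 21 of amino acid transporters. This difference depended on the window. With the sequence extended past the start to 300 bases, the shares were 27.8% and 23.8%, beside 2.10% of all promoters. The CRE was found in 2.29% of all, 4.98% of the group higher at 8-fold or more and 1.36% of the group lower at 4-fold or more. For the AP-1 site TGANTCA the same shares were 4.54%, 7.83% and 5.45%. NF-kB sites stood in 6.04% of all promoters, 7.47% of the higher and 8.64% of the lower group. By list they stood in 7 of 11 promoters of the listed chemokines and 12 of 27 of NF-kB subunits and inhibitors, in 1 of 14 of cytokines and in 6 of 16 of MHC class I genes. CArG boxes stood in 1.07% of all, 2.14% of the higher and 0% of the lower group, and in 3 of 17 immediate early promoters. E2F sites stood in 2.80% of all, 1.42% of the higher and 2.73% of the lower group, and in 11 of 37 DNA replication promoters (29.7%). The letters CCAAT stood in 32.4% of all and 59.5% of DNA replication promoters. They were not particular to that list, with 80% for cholesterol genes, 78.6% for the endoplasmic reticulum list and 69.4% for mitosis. Amino acid synthesis enzymes, most of which rose, had 66.7%, and immediate early genes 17.6%. A gene can have several promoters in the table, overlapping matches of different motifs were each counted, and a match describes letters, not binding.

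Most regulators of the integrated stress response rose. Of 18 listed, 14 rose and 3 fell, with a median of 1.91 (14, 3 and 1.84 without replicate 3). ATF4 itself read 246, 218 and 241 CPM with DMSO and 1266, 1227 and 1568 CPM with CC-885, a change of 2.53 ± 0.088, edgeR adjusted p = 6e-13. ATF3, a repressor of the same family, read 1.65, 2.24 and 1.82 CPM with DMSO and 643, 651 and 677 CPM with CC-885. TRIB3, a pseudokinase that restrains ATF4, rose by 3.93 ± 0.066. DDIT3, the pro-death factor CHOP, read 17.6, 16.5 and 18.4 CPM with DMSO and 548, 545 and 670.5 CPM with CC-885. PPP1R15A, the inducible subunit that takes phosphate off eIF2, read 32.6, 30.6 and 29.9 CPM with DMSO and 900.3, 874 and 844 CPM with CC-885, and its constitutive relative PPP1R15B rose by 1.30 ± 0.056. In these genes treated libraries lay above all controls. Replicate 3 was the highest for ATF4, ATF3 and DDIT3 and the lowest treated library for PPP1R15A. The partner factors ATF5 (2.91 ± 0.077), CEBPB (2.66 ± 0.10) and CEBPG (1.02 ± 0.055), the repressor NFIL3 (3.90 ± 0.07) and the stress protein NUPR1 (3.75 ± 0.20) rose too. Of the 4 kinases that phosphorylate eIF2, EIF2AK2, which senses double-stranded RNA (1.23), and EIF2AK3, which senses the ER (1.08), rose, whereas EIF2AK4, the sensor of uncharged tRNA and stalled ribosomes (-0.30), and EIF2AK1, the haem-regulated kinase (-0.32), fell.

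Amino acid supply rose selectively. Of 16 synthesis enzymes, 13 rose and 2 fell, with a median of 1.43 (13, 2 and 1.39 without replicate 3). Cystathionine lyase CTH, which makes cysteine, read 1.33, 0.866 and 1.03 CPM with DMSO and 33.2, 33.4 and 28.4 CPM with CC-885. Asparagine synthetase ASNS read 24.3, 29.8 and 30.2 CPM with DMSO and 191, 186 and 201 CPM with CC-885, and the mitochondrial folate enzyme ALDH1L2 read 22.8, 25.3 and 27.0 CPM with DMSO and 176, 172 and 155 CPM with CC-885. Both groups were well apart in each. The serine enzymes PHGDH (1.41), PSAT1 (1.30) and PSPH (1.53) and mitochondrial MTHFD2 (1.68) and SHMT2 (0.63) rose, while cytosolic SHMT1 (-1.39) and the proline enzyme ALDH18A1 (-0.99) fell. Of 13 amino acid transporters, 8 rose and 3 fell, with a median of 0.83 (8, 3 and 0.82 without replicate 3). The glycine transporter SLC6A9 (5.01 ± 0.14) and the cystine antiporter SLC7A11 (3.29 ± 0.19) rose most, followed by SLC3A2 (2.19), SLC38A2 (2.16) and SLC7A5 (2.13). The lysosomal transporter SLC36A1 (-0.69), SLC7A6 (-0.48) and SLC43A1 (-0.26) fell.

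Aminoacyl-tRNA synthetases, which load tRNAs, moved enzyme by enzyme. Of 20 cytosolic genes, 13 rose and 4 fell, with a median of 0.57 (13, 4 and 0.55 without replicate 3). The cysteine enzyme CARS read 40.9, 35.8 and 38.1 CPM with DMSO and 255, 248 and 266 CPM with CC-885. The threonine enzyme TARS read 452, 451 and 441 CPM with DMSO and 1379, 1372 and 1485 CPM with CC-885. Those for tryptophan (WARS, 2.20), glycine (GARS, 2.12), alanine (AARS, 1.88), methionine (MARS, 1.76) and tyrosine (YARS, 1.63) rose by over 1 on the log2 scale. The enzymes for histidine (HARS, -0.70), glutamine (QARS, -0.37) and both phenylalanine subunits (FARSA, -0.49, and FARSB, -0.28) fell, and those for lysine (KARS, -0.038) and aspartate (DARS, 0.08) did not pass the test.

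Outputs linked to late stress and death rose from low levels. Of 12 tested among 13 listed, 10 rose and 2 fell, with a median of 3.27 (10, 2 and 3.14 without replicate 3). A gene seen only under CC-885 could pass the filter by its treated libraries alone, and the count of rises and the median depend on this. CHAC1, which breaks down glutathione, read 1.05, 0.765 and 1.06 CPM with DMSO and 57.0, 56.0 and 43.6 CPM with CC-885. The peptide hormone gene ADM2 read 2.97, 3.14 and 2.71 CPM with DMSO and 115, 116 and 97.2 CPM with CC-885, and GDF15 and STC2, 2 secreted stress factors, rose by 5.36 ± 0.19 and 5.52 ± 0.27. TNFRSF10B, the death receptor DR5, read 26.8, 29.6 and 29.6 CPM with DMSO and 274, 277 and 232 CPM with CC-885, whereas its relative TNFRSF10A, or DR4, fell (-0.58). The treated libraries lay above all controls in CHAC1, ADM2 and TNFRSF10B. Among 12 brakes of the growth kinase mTORC1, 7 rose and 3 fell, with a median of 0.60 (7, 3 and 0.63 without replicate 3). SESN2 (4.81 ± 0.084), DDIT4 (3.00 ± 0.083) and the folliculin partners FNIP1 (1.79) and FLCN (1.22) rose. SESN3, another sestrin, went the other way, with 286, 346 and 314 CPM with DMSO and 133, 141 and 161 CPM with CC-885.

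The endoplasmic reticulum list was split. Of 22 genes, 10 rose and 10 fell, with a median of -0.038 (11, 10 and 0.047 without replicate 3). The factor XBP1 read 105, 95.05 and 89.8 CPM with DMSO and 708, 698 and 682 CPM with CC-885 and its activating kinase ERN1 rose by 2.81 ± 0.07. The degradation factor HERPUD1 rose by 1.91 ± 0.056. The chaperone cofactor SDF2L1 read 56.7, 55.1 and 54.6 CPM with DMSO and 12.6, 13.1 and 13.8 CPM with CC-885, and in both XBP1 and SDF2L1 the treatments did not overlap. Chosen after their values were seen, the master chaperone HSPA5 rose (0.56), while MANF (-1.36), PDIA6 (-1.29), PDIA4 (-1.27), calreticulin CALR (-1.17) and HSP90B1 (-0.78) fell. Heat shock chaperones of the cytosol were mixed as well, and of 18, 6 rose and 9 fell, with a median of -0.12 (6, 10 and -0.22 without replicate 3). DNAJB4 (2.72 ± 0.21) and BAG3 (1.37 ± 0.076) rose, and HSPA1A (-1.68 ± 0.13), AHSA1 (-1.30 ± 0.072) and HSPE1 (-1.24 ± 0.21) fell. HSPA1A shares near-identical sequence with HSPA1B (-0.014, not called), so reads may have been split between them.

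**Figure D4:**
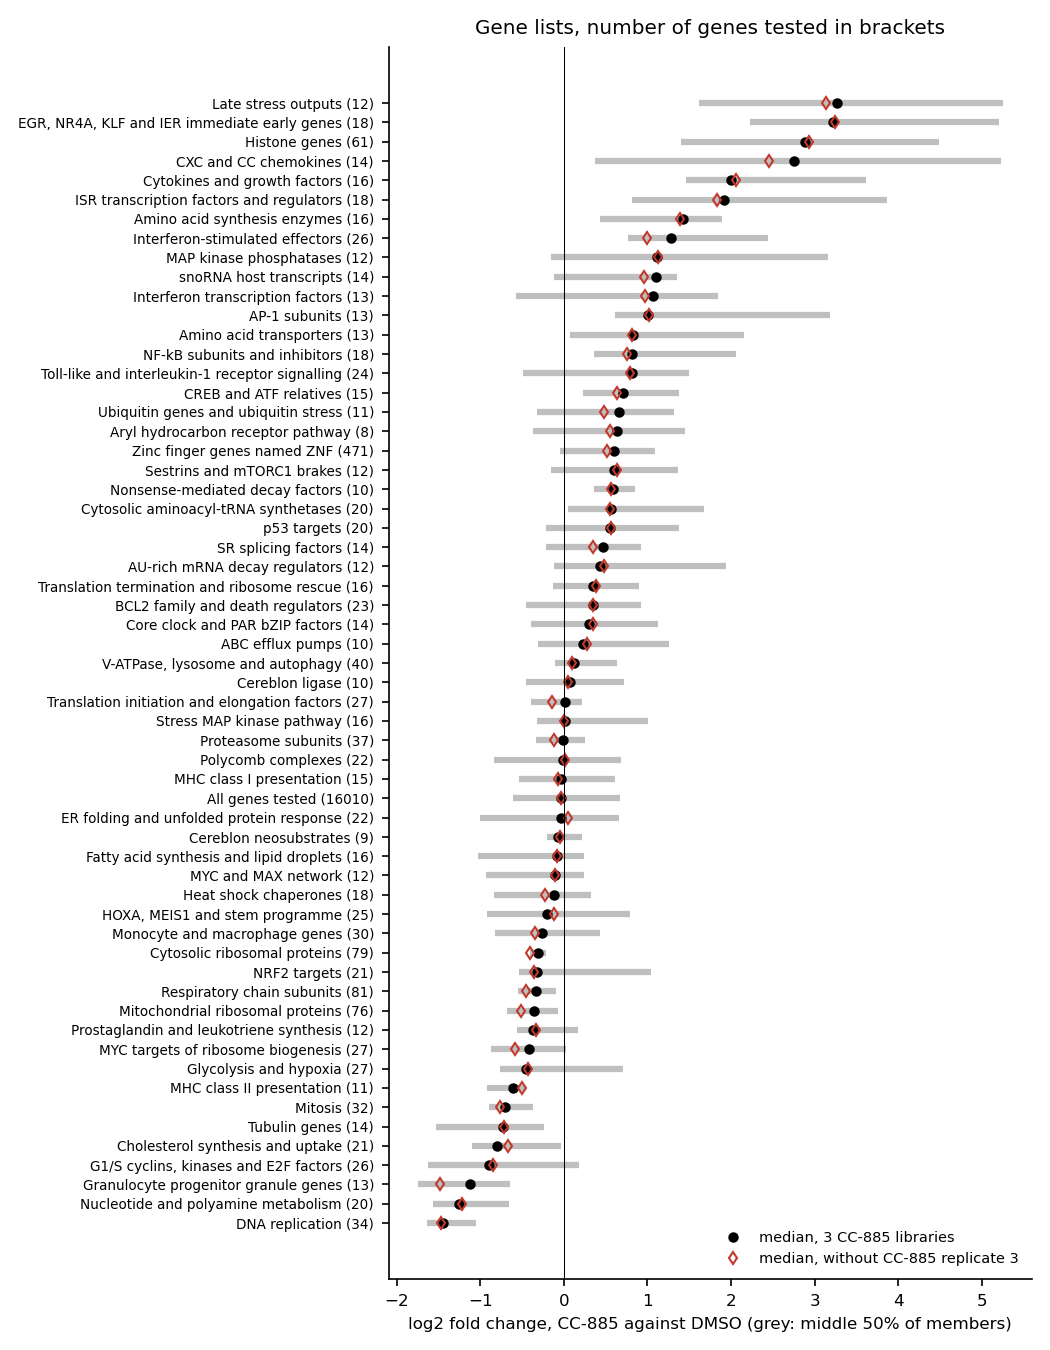
Median log2 fold change of each gene list (circles) with the middle 50% of its members as grey bars, the median without CC-885 replicate 3 (diamonds) and the number of genes tested in brackets. Medians run from -1.45 for DNA replication to 3.27 for late stress outputs, beside -0.034 for all genes tested. Genes low with DMSO could pass the filter by their treated libraries alone.

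Immediate early genes rose as a group. Of 18 EGR, NR4A, KLF and IER genes, 17 rose and 0 fell, with a median of 3.22 (16, 0 and 3.24 without replicate 3), and serum response factor SRF (-0.0073) did not pass the test. EGR1, a zinc finger factor induced by growth and stress signals, read 14.4, 10.2 and 13.2 CPM with DMSO and 1757, 1648 and 1627 CPM with CC-885. EGR3 read 0.941, 0.544 and 0.686 CPM with DMSO and 44.3, 43.8 and 35.0 CPM with CC-885, and KLF2, a factor that quiets monocytes, read 6.61, 6.34 and 5.95 CPM with DMSO and 43.1, 44.5 and 42.7 CPM with CC-885. None of the 3 overlapped between treatments. Of 13 AP-1 and MAF subunits, 10 rose and 1 fell, with a median of 1.00 (10, 1 and 1.02 without replicate 3). Besides JUN (7.31 ± 0.12), JUND read 104, 106 and 108 CPM with DMSO and 1036, 1030.3 and 825 CPM with CC-885, JUNB rose by 2.26 ± 0.069, FOS by 2.79 ± 0.10 and FOSB by 4.92 ± 0.18. BATF, the lymphoid AP-1 member, was the 1 that fell (-0.97 ± 0.088). Of 15 CREB and ATF relatives, 12 rose and 3 fell, with a median of 0.71 (11, 2 and 0.63 without replicate 3), with CREBRF (2.71 ± 0.16) and the coactivator CREBBP (2.00 ± 0.07) after CREB5. ATF7 lost its call without replicate 3 (-0.20 and -0.12), as did ATF1 (0.29 and 0.21).

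MAP kinase phosphatases, which shut off the kinases upstream of these factors, parted by member. Of 12 DUSP genes, 8 rose and 3 fell, with a median of 1.12 (8, 3 and 1.13 without replicate 3). DUSP16, which acts on the stress kinase JNK, read 2.20, 2.24 and 2.47 CPM with DMSO and 168, 164 and 177 CPM with CC-885, and DUSP1, a nuclear phosphatase, read 0.834, 0.967 and 1.32 CPM with DMSO and 50.1, 57.4 and 47.6 CPM with CC-885. DUSP7, a cytosolic phosphatase of ERK, moved the other way with 106, 103 and 104 CPM with DMSO and 42.8, 41.0 and 29.9 CPM with CC-885, and DUSP9 fell as well (-1.29 ± 0.11). Treatments were separate in these 4. Genes of the stress kinase pathway itself were near the middle of all genes, and of 16, 7 rose and 5 fell, with a median of 0.0096 (6, 5 and 0.0057 without replicate 3). GADD45A (1.85 ± 0.071) and GADD45B (1.25 ± 0.073) rose, as did the JNK1 gene MAPK8 (1.01 ± 0.081). The kinase genes MAPKAPK3 (-1.01 ± 0.088), MAP2K7 (-0.90 ± 0.072) and MAP3K5 (-0.79 ± 0.099) fell, as did the p38 gene MAPK14 (-0.39). ZAK, the kinase that senses collided ribosomes, stood at 0.13 and did not pass the test.

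Proteins that destroy AU-rich transcripts were among the risers. Of 12, 8 rose and 3 fell, with a median of 0.43 (8, 3 and 0.47 without replicate 3). ZFP36, or tristetraprolin, read 79.1, 74.6 and 77.4 CPM with DMSO and 1289, 1194 and 904 CPM with CC-885, and the endonuclease ZC3H12C read 5.84, 7.43 and 7.85 CPM with DMSO and 126, 131 and 133 CPM with CC-885. ZFP36L1 rose by 2.61 ± 0.16, while ZFP36L2 fell to 319, 307 and 268 CPM from 665, 670.4 and 668 CPM. ELAVL1, or HuR, which protects such transcripts, fell (-1.18 ± 0.061), as did the decay factor KHSRP (-0.68 ± 0.059). The heptamer TATTTAT, the core of AU-rich elements, was counted in the 3′ UTR of 12973 genes (GENCODE release 29), a measure added after the data were seen. Genes with 0 copies had a median log2 fold change of -0.15 (31.6% higher, n = 8498). With 1 copy the median was 0.078, with 3 to 4 copies 0.30, and with over 4 copies 0.57 (59.3% higher, n = 199). Without replicate 3 the first and last were -0.16 and 0.52. Length and GC content of the 3′ UTR were not held fixed in this count.

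Most listed inflammatory genes rose, many of them from low levels. Of 18 NF-kB subunits and inhibitors, 14 rose and 1 fell, with a median of 0.81 (15, 1 and 0.75 without replicate 3). The kinase MAP3K14 of the alternative pathway read 5.56, 6.14 and 6.21 CPM with DMSO and 90.4, 90.5 and 93.4 CPM with CC-885. The nuclear cofactor NFKBIZ read 4.30, 4.65 and 3.63 CPM with DMSO and 53.6, 47.8 and 25.9 CPM with CC-885, and the deubiquitinase TNFAIP3, or A20, read 10.9, 9.38 and 8.46 CPM with DMSO and 61.7, 62.3 and 68.4 CPM with CC-885. No treated library fell within the control range, and NFKBIZ was lowest among them in replicate 3. RELB (2.26), NFKB2 (2.21), NFKB1 (1.63) and REL (1.49) rose, whereas RELA (0.11) did not pass the test with all libraries and TNIP1 fell (-0.54). Of 14 chemokines tested among 17 listed, 9 rose and 2 fell, with a median of 2.76 (8, 2 and 2.45 without replicate 3). The filter dropped genes low in every group, and a gene seen only under CC-885 could pass by its treated libraries alone. The count of rises and the median depend on this. IL8, the neutrophil attractant CXCL8, read 0.983, 1.09 and 0.776 CPM with DMSO and 131, 137 and 426 CPM with CC-885, and its change of 7.93 ± 0.64 was 7.15 without replicate 3. CCL3 read 0.513, 0.423 and 0.451 CPM with DMSO and 29.9, 30.7 and 25.8 CPM with CC-885. Treated values of both were above all controls. CXCL3, with 1 DMSO count, reached 0.349, 0.583 and 0.809 CPM, a ratio of shares of 84.3 (95% interval 14.7 to 3368). CCL5 read 48.3, 50.6 and 47.1 CPM with DMSO and 51.1, 51.9 and 49.8 CPM with CC-885 and did not pass the test (0.065).

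Of 16 cytokine and growth factor genes tested among 22 listed, 13 rose and 1 fell, with a median of 2.00 (13, 1 and 2.06 without replicate 3). The limit of the filter given for chemokines holds for this list too. IL1B read 0.620, 0.785 and 0.523 CPM with DMSO and 98.9, 98.6 and 92.2 CPM with CC-885. The EGF receptor ligand HBEGF read 8.42, 7.57 and 7.16 CPM with DMSO and 107, 100.0 and 82.8 CPM with CC-885, and TNF read 9.38, 8.14 and 7.14 CPM with DMSO and 35.6, 31.4 and 28.2 CPM with CC-885. IL23A (3.12), OSM (1.99) and TNFSF9 (2.00) rose. TGFB1, which restrains inflammation, was the 1 that fell, with 118, 114 and 114 CPM with DMSO and 42.7, 46.8 and 37.3 CPM with CC-885. Treatments were separate in all 4 of the genes with values in each library. Receptor side genes were mixed, and of 24, 14 rose and 8 fell, with a median of 0.81 (14, 8 and 0.79 without replicate 3). IRAK2 (2.63 ± 0.10), PELI1 (2.29 ± 0.091) and TRAF6 (1.78 ± 0.062) rose, while the lipopeptide receptor TLR2 (-1.55 ± 0.074) and the adaptor TIRAP (-1.45 ± 0.095) fell. IRAK4, not targeted in these cells, read 53.9, 50.9 and 51.6 CPM with DMSO and 65.4, 69.4 and 83.6 CPM with CC-885 (0.48 ± 0.088).

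Interferon effectors rose, and most were higher in replicate 3 than in the other treated libraries. Of 26 effectors, 22 rose and 1 fell, with a median of 1.28 (20, 1 and 0.99 without replicate 3). Over the list, replicate 3 lay above the mean of replicates 1 and 2 by a median of 0.58 on the log2 scale, against -0.018 over all genes. IFIT1, a sensor of foreign RNA caps, read 4.81, 7.17 and 6.26 CPM with DMSO and 22.4, 27.7 and 73.5 CPM with CC-885, and its change of 2.76 ± 0.44 was 2.04 without replicate 3. IFIT2 read 7.82, 7.19 and 6.96 CPM with DMSO and 63.2, 69.1 and 98.7 CPM with CC-885 and OASL read 5.45, 6.001 and 5.79 CPM with DMSO and 42.3, 46.8 and 80.0 CPM with CC-885. All treated values exceeded all controls in these 3, with replicate 3 the highest. IFI44L (1.30 and 0.78) and IFI35 (0.29 and 0.13) lost their calls without it. Of 13 interferon factors and receptors, 8 rose and 5 fell, with a median of 1.07 (8, 5 and 0.98 without replicate 3). IRF7 read 26.0, 32.4 and 31.1 CPM with DMSO and 265, 258 and 336 CPM with CC-885, and STAT2 (1.85), IRF9 (2.50) and IRF1 (1.07) rose. The receptor genes IFNAR1 (-0.55) and IFNAR2 (-0.65) and the myeloid factor IRF8 (-1.04) fell. IFNB1 itself reached 0.699, 0.642 and 0.688 CPM from 0.0214, 0 and 0 CPM, that is from 1 count to 103, a ratio of shares of 98.7 (95% interval 17.3 to 3936).

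The drug's own machinery changed unevenly at the transcript level. GSPT1 read 214, 231 and 225 CPM with DMSO and 253, 259.6 and 248 CPM with CC-885 (0.18 ± 0.054, edgeR adjusted p = 0.00636), a rise that was not called with library size alone, with upper-quartile factors or in prefix 52 alone. CRBN, the drug's receptor, read 16.4, 15.5 and 15.8 CPM with DMSO and 27.7, 30.3 and 56.2 CPM with CC-885. Replicate 3 was the highest, and the change of 1.26 ± 0.22 was 0.87 without it. Of 16 termination and ribosome rescue genes, 10 rose and 4 fell, with a median of 0.35 (10, 4 and 0.39 without replicate 3). The release factor ETF1 read 281, 288 and 271 CPM with DMSO and 535, 549 and 590.3 CPM with CC-885, with no overlap. The quality control ligase LTN1 (1.20 ± 0.17), its partner NEMF (0.99 ± 0.075) and TCF25 (1.04 ± 0.058) rose. The splitting factors ABCE1 (-1.14 ± 0.10) and PELO (-0.85 ± 0.086) fell. Of 10 cereblon ligase genes, 5 rose and 4 fell, with a median of 0.072 (4, 4 and 0.051 without replicate 3). CRBN, UBE2D3 (0.97 ± 0.066) and COPS5 (0.76 ± 0.098) were among those that rose. The core parts DDB1 (-0.72 ± 0.052), RBX1 (-0.80 ± 0.10) and CUL4A (-0.55 ± 0.055) were among those that fell. Among 9 genes of proteins that cereblon drugs can degrade, 2 rose and 2 fell, with a median of -0.075 (2, 2 and -0.046 without replicate 3). The kinase gene CSNK1A1 read 212, 203 and 199.6 CPM with DMSO and 620.0, 639.6 and 670.5 CPM with CC-885, and the lymphoid factor IKZF1 read 271, 286 and 283 CPM with DMSO and 124, 125 and 116 CPM with CC-885. These moved in opposite directions, each without overlap.

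Translation factors showed a few strong rises within a flat list. Of 27, 9 rose and 10 fell, with a median of 0.017 (9, 11 and -0.14 without replicate 3). EIF1, which holds the scanning ribosome to strict start codons, read 255, 254 and 258 CPM with DMSO and 1278, 1236 and 1299 CPM with CC-885, and EIF5, its counterpart in start recognition, read 317, 329 and 321 CPM with DMSO and 830.4, 837 and 879.6 CPM with CC-885. Both were higher in every treated library than in any control. The eIF2 beta subunit EIF2S2 rose (1.12 ± 0.076), and the kinase EEF2K fell (-1.30 ± 0.073). Nonsense-mediated decay factors rose in 8 of 10 cases with 0 falls (8 rises and 1 fall without replicate 3). Of 14 SR splicing factors, which control themselves through exons that trigger this decay, 8 rose and 5 fell, with a median of 0.47 (8, 5 and 0.35 without replicate 3). SRSF3 read 456, 499 and 473 CPM with DMSO and 1401, 1389 and 1645 CPM with CC-885 and SRSF1 read 499.8, 556 and 515 CPM with DMSO and 224, 211 and 213 CPM with CC-885. The groups were apart in both, in opposite directions. Host transcripts of small nucleolar RNAs, also targets of the decay, rose in 10 of 14 cases and fell in 4 (10 and 4 without replicate 3).

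Ribosomal protein transcripts were lower with CC-885, by an amount that differed between library sets. Of 79 cytosolic ribosomal protein genes, 0 rose and 50 fell, with a median of -0.31 (0, 74 and -0.41 without replicate 3). RPL7A read 1567, 1361 and 1302 CPM with DMSO and 843, 856 and 763 CPM with CC-885 and RPL3 read 1984, 1839 and 1732 CPM with DMSO and 1152, 1182 and 1109.7 CPM with CC-885, with no overlap. The list's median was -0.56 in libraries of prefix 51 and -0.12 in those of prefix 52. Summed over the list, levels were 87144, 74957 and 75899 CPM with DMSO and 58422, 60289 and 75040.5 CPM with CC-885. DMSO replicate 1 was the highest of its group, and CC-885 replicate 3 lay within the range of DMSO replicates 2 and 3. Of 76 mitochondrial ribosomal proteins, 8 rose and 41 fell, with a median of -0.36 (8, 55 and -0.51 without replicate 3). Their median was -0.49 in prefix 51 and -0.20 in prefix 52. MRPL34 (-1.84 ± 0.079), MRPL17 (-1.67 ± 0.12), MRPS26 (-1.48 ± 0.083) and MRPL43 (-1.26 ± 0.076) moved most. Of 81 nuclear-encoded respiratory chain subunits, 7 rose and 47 fell, with a median of -0.33 (6, 62 and -0.45 without replicate 3), led by the complex I subunit NDUFS8 with 75.7, 77.8 and 72.7 CPM with DMSO and 19.6, 18.4 and 16.8 CPM with CC-885. Its treated libraries lay well below the controls, and the list's median was -0.52 in prefix 51 and -0.12 in prefix 52. Ribosome assembly genes that MYC is known to drive numbered 27, and 5 rose and 16 fell, with a median of -0.42 (4, 19 and -0.59 without replicate 3). TCOF1 (-1.74 ± 0.067), RRS1 (-1.49 ± 0.07) and the polymerase I subunit POLR1A (-1.04 ± 0.076) fell, while RRP12 (0.81 ± 0.059) and the helicase DDX21 (0.60 ± 0.11) rose.

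MYC, the transcription factor that drives growth genes, read 267, 275 and 277 CPM with DMSO and 87.0, 84.4 and 73.2 CPM with CC-885 (-1.74 ± 0.066, edgeR adjusted p = 1.5e-12). All treated libraries lay below all controls. Of 12 genes of the MAX network, 4 rose and 6 fell, with a median of -0.10 (4, 6 and -0.11 without replicate 3). MXD1, which competes with MYC for MAX, read 9.34, 10.5 and 10.4 CPM with DMSO and 132, 129 and 124 CPM with CC-885, whereas the family members MXD3 (-2.05 ± 0.13), MNT (-0.96 ± 0.10) and MXD4 (-0.92 ± 0.082) fell. MAX itself rose (0.19). Of 20 genes for nucleotide and polyamine synthesis, 1 rose and 18 fell, with a median of -1.26 (1, 19 and -1.22 without replicate 3). The pyrimidine enzyme DHODH read 19.8, 23.9 and 23.8 CPM with DMSO and 3.38, 3.71 and 4.51 CPM with CC-885, ribonucleotide reductase RRM2 read 117, 122 and 119 CPM with DMSO and 22.4, 23.1 and 27.5 CPM with CC-885 and thymidine kinase TK1 read 190.1, 175 and 176 CPM with DMSO and 52.4, 50.9 and 44.3 CPM with CC-885. All were lower in every treated library. The polyamine enzyme ODC1 alone rose (0.63 ± 0.05).

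Cell cycle transcripts fell, more so at the median for replication than for mitosis. Of 34 DNA replication genes, 0 rose and 33 fell, with a median of -1.45 (0, 33 and -1.47 without replicate 3). FEN1, the flap endonuclease, read 191, 189 and 196 CPM with DMSO and 29.9, 29.7 and 36.6 CPM with CC-885, and the sliding clamp PCNA, whose promoter is shown above, read 117, 113 and 112 CPM with DMSO and 23.0, 24.0 and 29.3 CPM with CC-885. The replication initiator MCM10 stood at -2.40 ± 0.10, and the helicase subunit MCM3 read 818, 839 and 886 CPM with DMSO and 299, 297 and 302 CPM with CC-885. Of 26 genes of the entry into S phase, 6 rose and 17 fell, with a median of -0.89 (6, 17 and -0.85 without replicate 3). SKP2, the ligase subunit that removes CDK inhibitors, read 126, 139 and 136 CPM with DMSO and 19.9, 23.0 and 19.8 CPM with CC-885, and cyclin CCNE2 read 57.6, 68.7 and 72.4 CPM with DMSO and 9.86, 9.41 and 17.3 CPM with CC-885. CDKN1A, the CDK inhibitor p21, went up, with 31.5, 23.0 and 22.9 CPM with DMSO and 418, 403 and 313 CPM with CC-885. Treated and control values were separate for all of these. Of 32 mitosis genes, 0 rose and 28 fell, with a median of -0.70 (0, 31 and -0.76 without replicate 3). ANLN (-1.35 ± 0.065), AURKB (-1.29 ± 0.11), KIF23 (-1.28 ± 0.072) and KIF11 (-1.26 ± 0.092) fell most.

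Histone genes rose while replication genes fell. Replication-dependent histone transcripts end in a stem-loop rather than a polyA tail, and a polyA library captures the fraction that is tailed. Of 53 genes named HIST that passed the filter, 48 rose and 0 fell (47 and 0 without replicate 3), with a median of 3.28. The filter removed 18 of the 79 histone genes listed, and a gene seen only under CC-885 could pass by that group alone. Together the HIST genes held 32.1, 22.9 and 23.0 CPM with DMSO and 282, 265 and 234 CPM with CC-885. All 3 treated libraries lay above the controls, and replicate 3 was the lowest of them. HIST2H2BE read 1.41, 0.866 and 1.10 CPM with DMSO and 89.4, 75.2 and 43.8 CPM with CC-885 and HIST1H1E read 0.257, 0.161 and 0.198 CPM with DMSO and 10.9, 11.5 and 7.42 CPM with CC-885. Both were separate between treatments, and clustered histone genes resemble one another closely, so reads may have been shared among copies. By class, 5 of 5 H1, 13 of 14 H2A, 14 of 16 H2B, 8 of 9 H3 and 8 of 9 H4 genes rose. Of the 8 listed histone genes with other names, 3 rose and 4 fell. H1FX (2.86 ± 0.073) and the replacement histone H3F3B (1.81 ± 0.054) rose with H1F0, while H3F3A, which encodes the same protein as H3F3B, fell (-1.27 ± 0.074), as did H2AFZ (-1.03 ± 0.14).

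Chromatin regulators differed within Polycomb. Of 22 subunits, 9 rose and 7 fell, with a median of -0.0096 (8, 7 and 0.0072 without replicate 3). CBX2, a reader of the Polycomb mark, read 32.6, 34.2 and 36.4 CPM with DMSO and 4.58, 4.49 and 3.34 CPM with CC-885, and CBX6 and CBX8 stood at -1.53 ± 0.073 and -1.42 ± 0.10. The ligase subunit RNF2 read 12.3, 13.6 and 13.0 CPM with DMSO and 35.1, 37.3 and 48.3 CPM with CC-885. Treatments were apart in CBX2 and RNF2. Genes named ZNF, which encode zinc finger proteins, many of them repressors, gave 300 of 471 higher and 85 lower (median 0.60, or 290, 92 and 0.51 without replicate 3). Of those with a mean over 5 CPM, 257 of 364 rose, and of those at or under it 43 of 107.

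Death regulators rose and fell in similar numbers. Of 23, 11 rose and 8 fell, with a median of 0.35 (11, 8 and 0.35 without replicate 3). PMAIP1, or NOXA, read 15.2, 15.6 and 15.9 CPM with DMSO and 123, 129.6 and 225 CPM with CC-885, and BBC3, or PUMA, read 9.56, 9.46 and 9.44 CPM with DMSO and 69.3, 68.8 and 70.7 CPM with CC-885. MCL1, the survival protein that NOXA binds, read 384, 393 and 383 CPM with DMSO and 935, 871 and 889.5 CPM with CC-885, while BCL2 read 195, 203 and 209.9 CPM with DMSO and 118, 118 and 113 CPM with CC-885. Treatments did not overlap in these 4. Of 20 p53 target genes, 11 rose and 5 fell, with a median of 0.55 (11, 5 and 0.56 without replicate 3). THP-1 cells are known to lack functional p53. CDKN1A, BTG2 (3.18 ± 0.11), BBC3 and PLK3 (2.71 ± 0.11) rose, and PHLDA3 (-1.48 ± 0.16), FAS (-0.81 ± 0.23), BAX (-0.51) and ZMAT3 (-0.72) fell.

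Myeloid identity genes moved both ways. Of 13 granule genes, 0 rose and 10 fell, with a median of -1.13 (0, 11 and -1.48 without replicate 3). Replicate 3 lay above the mean of the other treated libraries by a median of 0.44, but not in every gene. Among treated libraries, PRTN3 and the granule proteins ELANE, CTSG and AZU1 were lowest in replicate 3, while RNASE2 was highest there. The protease PRTN3 read 920.4, 1004 and 976 CPM with DMSO and 260.2, 262 and 202 CPM with CC-885, and the ribonuclease RNASE2 read 195, 214 and 232 CPM with DMSO and 42.4, 44.4 and 70.3 CPM with CC-885. Each stayed below controls in all treated libraries. Of 30 genes of monocytes and macrophages, 8 rose and 14 fell, with a median of -0.26 (9, 17 and -0.34 without replicate 3). The activation marker CD83 read 5.04, 5.20 and 4.58 CPM with DMSO and 93.2, 96.1 and 105 CPM with CC-885, while CD33 (-1.12), ITGAM (-1.06) and S100A8 (-1.31 ± 0.19) fell. Of 25 stem programme genes, 8 rose and 12 fell, with a median of -0.20 (8, 12 and -0.11 without replicate 3). KIT read 7.12, 4.79 and 5.70 CPM with DMSO and 0.932, 0.681 and 0.405 CPM with CC-885, HOXA10 stood at -1.34 ± 0.061 and MYB at -0.92, whereas BCL6 (3.00 ± 0.083), GATA2 (1.53 ± 0.12) and CDK6 (1.03 ± 0.11) rose. Antigen presentation parted by class. Of 11 class II genes, 0 rose and 8 fell, with a median of -0.61 (0, 9 and -0.50 without replicate 3), with the class II activator CIITA at 1.90, 2.19 and 2.29 CPM with DMSO and 0.369, 0.350 and 0.364 CPM with CC-885. Of 15 class I genes, 4 rose and 6 fell, with a median of -0.034 (5, 6 and -0.072 without replicate 3). HLA-E rose (1.56 ± 0.078), B2M stood at 0.61 without a call, and the immunoproteasome subunits PSMB8 (-0.97 ± 0.069) and PSMB9 (-0.66 ± 0.088) fell. HLA genes are similar to each other, and reads may have been shared.

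Cholesterol and glycolysis lists leaned lower, while the median of the fatty acid list lay near that of all genes. Of 21 cholesterol genes, 2 rose and 14 fell, with a median of -0.80 (3, 15 and -0.67 without replicate 3). MSMO1, a methylsterol monooxygenase, read 26.0, 30.3 and 26.9 CPM with DMSO and 6.66, 7.47 and 7.02 CPM with CC-885 (-1.98 ± 0.092), with no overlap. The regulator SREBF2 (0.084) and the early enzyme HMGCS1 (-0.033) did not pass the test. Of 16 fatty acid and lipid droplet genes, 5 rose and 8 fell, with a median of -0.085 (6, 8 and -0.078 without replicate 3). The desaturases SCD (-1.37) and FADS2 (-1.47) fell with CIDEB, and the droplet coat PLIN2 read 42.7, 45.2 and 42.3 CPM with DMSO and 227, 221 and 259 CPM with CC-885 and the acyl-CoA ligase ACSL1 44.5, 47.9 and 50.9 CPM with DMSO and 227, 235 and 237 CPM with CC-885. The latter pair rose in all treated libraries. Of 27 glycolysis and hypoxia genes, 9 rose and 16 fell, with a median of -0.45 (9, 16 and -0.43 without replicate 3), with the secreted factor VEGFA at 16.7, 18.7 and 19.1 CPM with DMSO and 243, 232 and 192 CPM with CC-885. Lactate dehydrogenase LDHA, chosen after its values were seen, read 859, 902 and 887 CPM with DMSO and 381, 389.5 and 419 CPM with CC-885. VEGFA rose and LDHA fell, each without overlap.

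Waste handling and cytoskeleton gave further contrasts. SQSTM1, the autophagy receptor p62, read 161, 145 and 144 CPM with DMSO and 1201, 1167 and 1306 CPM with CC-885, and MAP1LC3B, which marks autophagosomes, read 36.5, 31.8 and 31.7 CPM with DMSO and 435, 409 and 419.7 CPM with CC-885. NFE2L2, the antioxidant factor NRF2, read 87.4, 85.1 and 83.4 CPM with DMSO and 669, 675 and 778 CPM with CC-885. Treated values exceeded controls in all 3, yet of 21 NRF2 targets, 9 rose and 10 fell, with a median of -0.32 (9, 11 and -0.36 without replicate 3). Of 40 lysosome and autophagy genes, 16 rose and 9 fell, with a median of 0.12 (16, 10 and 0.092 without replicate 3). Of 37 proteasome subunits, 11 rose and 14 fell, with a median of -0.0084 (10, 17 and -0.12 without replicate 3), and PSMC6 lost its call without replicate 3 (0.69 and 0.22). Of 14 tubulin genes, 3 rose and 10 fell, with a median of -0.73 (3, 10 and -0.71 without replicate 3). TUBB read 1244, 1226 and 1237 CPM with DMSO and 274, 268 and 234 CPM with CC-885 and TUBA4A stood at -1.86 ± 0.083, whereas the epsilon tubulin gene TUBE1 read 10.3, 9.77 and 10.7 CPM with DMSO and 92.9, 93.4 and 138 CPM with CC-885. The groups did not overlap in either. Of 11 ubiquitin genes, 7 rose and 4 fell, with a median of 0.66 (7, 4 and 0.48 without replicate 3), with UBB, a polyubiquitin gene, among the falls (-0.67).

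Efflux, xenobiotic, prostaglandin and clock lists were each mixed. Of 10 efflux pumps, 4 rose and 3 fell, with a median of 0.23 (4, 3 and 0.28 without replicate 3). ABCB4, the neighbour and close relative of ABCB1, rose as well (3.06 ± 0.087), while the nucleotide exporter ABCC4 fell (-1.44 ± 0.091). Of 8 genes of the aryl hydrocarbon receptor pathway, 4 rose and 3 fell, with a median of 0.63 (4, 3 and 0.55 without replicate 3). The receptor AHR read 9.90, 9.22 and 9.11 CPM with DMSO and 56.2, 64.0 and 62.0 CPM with CC-885 and its target TIPARP read 22.1, 23.0 and 23.4 CPM with DMSO and 263, 273 and 286 CPM with CC-885, with treatments apart, while the repressor AHRR fell (-0.40). Of 12 prostaglandin and leukotriene genes, 3 rose and 7 fell, with a median of -0.38 (3, 7 and -0.33 without replicate 3). The prostaglandin receptor PTGER4 rose with PTGS2 (2.23 ± 0.062). Of 14 clock genes, 7 rose and 5 fell, with a median of 0.30 (7, 5 and 0.34 without replicate 3). NR1D2 (2.07 ± 0.092) and PER1 (1.79 ± 0.13) rose, and the output factors DBP (-1.84 ± 0.12) and TEF (-1.06 ± 0.094) fell.

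What set replicate 3 apart was examined by gene and by transcript feature, with no test, since it is 1 library. Among genes with a mean of at least 5 CPM under CC-885, those highest in replicate 3 over the mean of replicates 1 and 2 were SMN1 (2.00 on the log2 scale), IL8 (1.67), IFIT1 (1.56), IFI27 (1.52) and RPL22L1 (1.48). Lowest were the nuclear RNAs MALAT1 (-1.94) and NEAT1 (-1.84), SAP25 (-1.87) and AGER (-1.78). MALAT1 read 79.8, 113 and 87.6 CPM with DMSO and 620.4, 357 and 123 CPM with CC-885, and NEAT1 read 27.8, 27.5 and 25.02 CPM with DMSO and 435, 319.5 and 104 CPM with CC-885. SMN1 has a near-identical copy, SMN2, and its reads may be split. By GC content of the transcript, replicate 3 exceeded the others by a median of 0.26 for transcripts of at most 40% GC and differed from them by -0.14 for those over 60%. The mean of DMSO replicates 2 and 3 minus replicate 1 went from 0.073 to -0.0065 over the same bins. The response itself also declined along GC, from 0.35 to -0.29 with all libraries and from 0.24 to -0.25 without replicate 3. The share called higher was 51.9% in the first bin and 24.3% in the last. The GC and library comparisons were added after the data were seen, and their part in the results above was not tested.

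**Figure D5:**
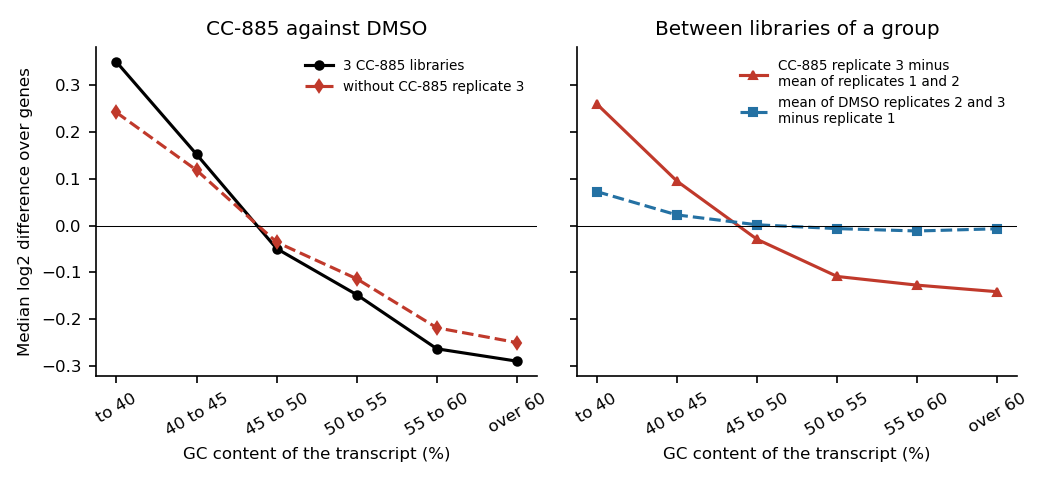
Median log2 difference over genes by GC content of the transcript (horizontal axis, percent). The left panel shows CC-885 against DMSO with and without replicate 3, which runs from 0.35 to -0.29 with all libraries, and the right panel shows differences between libraries of 1 group, where replicate 3 runs from 0.26 to -0.14.

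Other features of the transcripts varied with the response. Genes with over 20 exons had a median of 0.18 and those with 2 to 5 exons -0.18. Transcripts over 8000 bases had a median of 0.28 (50.4% higher), and those of at most 1000 bases -0.22 (24.2%). Genes that span over 100 kb stood at 0.18 and those of at most 5 kb at -0.23. The features were taken 1 at a time, with none of the others held fixed. Of 116 tested symbols annotated as small nucleolar RNAs, 4.31% rose and 35.3% fell (median -0.60, or -0.39 without replicate 3). Reads from such RNAs, which lie in introns and lack a polyA tail, cannot be told apart from reads of unspliced hosts here.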

How the data were processed

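PolyA-selected RNA was sequenced as paired ends in 12 libraries (4 groups of 3), and the authors deposited 1 table of read counts per gene symbol. Per the submitters' processing notes, FastQC 0.11.2, HISAT2 2.0.5 and featureCounts 1.5.2 were used with GRCh38. One protocol also names a mouse build, whereas the symbols are human. The strand setting and the treatment of reads with several positions are not given in the labels or notes used here. From the deposited counts, genes that pass edgeR's filterByExpr by group (16010 of 30017 symbols, holding 99.98% of counts) were scaled with TMM factors and fitted with edgeR 4.0.16 (R 4.3.3), using robust quasi-likelihood with 1 coefficient per group over all 12 libraries. The contrast was wild-type CC-885 minus wild-type DMSO, with Benjamini-Hochberg adjustment over all genes tested and calls at an adjusted p under 0.05. CPM values use the TMM factors, except those of the cell type markers, which use library totals. The script was tested on simulated data. The biological coefficient of variation was 0.0899, or 0.0634 without CC-885 replicate 3. At 46903984 to 54905015 counts a library, a count of 0 allows up to 3 counts.

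Genes were picked by rule, and not all of those picked are printed. The rules took GSPT1, CRBN, IRAK4 and MYC, the 15 largest rises and falls, and the 10 largest gains and losses in CPM. They also took the leading called members of each list with up to 3 that go against it. For lists of up to 20, further members were named where the list is described member by member. Genes most apart in replicate 3, and genes absent from DMSO, were taken too. Rankings left out symbols beginning with LOC, LINC, MIR or SNOR, clone and orf names, Y-linked genes and XIST. The 15 largest rises and falls, and the 10 largest gains and losses, were taken from called genes with no overlap. The rises and falls also had at least 5 CPM in the higher group. CALR, CD33, H1FX, H3F3B, HMGCS1, HOXA10, HSP90B1, HSPA5, IFI35, IFI44L, ITGAM, LDHA, MCM3, MYB, PCNA, PDIA4 and SREBF2 were added after their values were seen. Members and lists were chosen with earlier results of these data known, so counts over them are descriptions. Positions and features come from GENCODE release 29 (87.1% of tested symbols matched), and promoters from RefSeq. Alternatives covered scaling, filters, DESeq2 1.42.0, library-name prefixes, replicate blocks, the 6 wild-type libraries alone and each library left out.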

Additional observations from a re-analysis of the deposited data

How the results depend on the processing

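Counts of called genes stayed within 1.5 times the reported ones under the 19 alternatives run. The 11575 calls ranged from 10629 (at least 1 CPM in 3 libraries) to 11843 (the 6 wild-type libraries without CC-885 replicate 3, chosen after seeing the data), and the 4693 calls at 2-fold or more from 3853 to 4990. Leaving out each library in turn gave 10948 to 11784 calls, 5427 to 5774 of them higher and 5521 to 6010 lower, and 4565 to 4746 at 2-fold or more. Within the 51 prefix alone there were 10874 calls and within the 52 prefix 11192. One treatment arm of each prefix holds a single library, which is assumed to vary like the other groups. DESeq2 called 11525. Upper-quartile factors split the calls into 5364 higher and 6380 lower and put the median of all genes at -0.10, from -0.034. Under the filter at 1 CPM, the median of the chemokine list moved to 3.65 and that of the histone list to 3.63, since fewer genes were tested. Of 373 genes picked by the rules, 10 moved by over 1.5-fold without CC-885 replicate 3. They were IL8, IFIT1, SMN1, IFI27, RPL22L1, CENPQ, ACTR6, SCOC, EVI2A and XRCC4. The median move was 0.066 and the largest 1.01 on the log2 scale. The call of GSPT1 ended with library size alone (0.13, edgeR adjusted p = 0.063), with upper-quartile factors (0.11, adjusted p = 0.076) and within the 52 prefix (0.12, adjusted p = 0.13), and that of MALAT1 within the 52 prefix (0.29, adjusted p = 0.50). The cause of these changes was not tested.

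Replicate numbers in the titles did not pair the libraries: deviations of same-numbered DMSO and CC-885 libraries from their group means correlated at 0.053, -0.034 and 0.073. Over all pairs, correlations were 0.041 to 0.086 where the library-name prefix was the same and -0.10 to -0.023 where it differed. These values are not independent, since deviations were taken from group means. A fit with the title number as a replicate block gave 11638 calls, and a replicate block by the number in the library name 10824.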
